A study of Homo sapiens with 6 samples.

Results

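The human complement receptors and regulators CR2, CR1, CR1L, CD55, CD46 and CD59 were examined in MOLT-3 cells, a line established from a T-cell acute lymphoblastic leukaemia (T-ALL). They were chosen by gene name, with earlier results of the same treatment contrast known, and are 6 of the 58735 genes in the deposited tables. RNA sequencing was performed on 3 libraries from cells treated with compound E and on 3 from cells that received DMSO, the solvent. Compound E inhibits gamma-secretase, the protease that frees the active part of NOTCH receptors. All 6 libraries came from the same cell line, and the study asked which genes NOTCH1 regulates in T-ALL cells that may alter their sensitivity to chemotherapy. The labels state neither the dose nor the duration of compound E, nor whether the libraries of a group came from separate cultures, so a p-value here covers the spread among these libraries alone, which may be technical.

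Library totals were 18154037 to 18973990 counts with compound E and 17316138 to 19845114 counts with DMSO. Genes were tested with edgeR's quasi-likelihood test, and a gene was called when its p-value, adjusted by Benjamini-Hochberg over all 16926 genes tested, was under 0.05. By this rule 38.3% of the tested genes were called, 18.9% higher and 19.4% lower with compound E, and 46.8% had groups that did not overlap. Of 6 tested NOTCH1 target and receptor genes 5 were called lower, and NOTCH1 itself was called higher. The cells carried the T-lineage markers that their label implies: 16 of 16 had reads in every library. Their summed level was 5296 to 5385 CPM (reads per 1000000 reads of a library, with TMM scaling) with compound E and 4353 to 4393 CPM with DMSO. The markers did not move together: 8 were called higher and 7 lower, beside 18.9% and 19.4% of all tested genes. Their median log2 fold change was 0.0127.

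Complement is a cascade of plasma proteins in which fragments of C3 are fixed to a surface and enzyme complexes called convertases then amplify the deposit until a membrane pore is assembled. Host cells limit it with surface proteins. CD55 hastens the decay of convertases, CD46 and CR1 act as cofactors when factor I cuts C3b and C4b, and CD59 blocks the last step of pore assembly. CR2, also called CD21, binds C3d and other late fragments of C3, lowers the threshold of the B-cell receptor in a complex with CD81, and is the receptor of Epstein-Barr virus on B cells. CR2, CR1, CR1L, CD55 and CD46 are built from repeated complement control protein (CCP) domains and lie in one cluster on chromosome 1. CD59 has a different structure and lies on chromosome 11, and it shares with CD55 a glycosylphosphatidylinositol (GPI) lipid anchor. The mouse gene related to CR1L, Crry, encodes a membrane regulator of complement.

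The promoters of CR2 and CD55 are shown because these adjacent coding genes were the 2 with lower levels under compound E. The windows are from RefSeq, GRCh38.p14, and run from 250 bases before to 50 bases after an annotated start, 5′ to 3′ on the gene's strand. Capitals mark the longest word of letters common to both windows. CR2 is at chr1:207454078-207454377 and CD55 at chr1:207321428-207321727, both on the plus strand.
CR2: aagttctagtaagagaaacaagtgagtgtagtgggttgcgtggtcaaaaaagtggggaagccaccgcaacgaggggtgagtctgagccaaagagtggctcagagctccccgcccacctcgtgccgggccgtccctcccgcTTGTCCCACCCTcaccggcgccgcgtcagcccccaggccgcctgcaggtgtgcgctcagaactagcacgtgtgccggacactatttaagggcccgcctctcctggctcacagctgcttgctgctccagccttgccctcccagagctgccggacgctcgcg
CD55: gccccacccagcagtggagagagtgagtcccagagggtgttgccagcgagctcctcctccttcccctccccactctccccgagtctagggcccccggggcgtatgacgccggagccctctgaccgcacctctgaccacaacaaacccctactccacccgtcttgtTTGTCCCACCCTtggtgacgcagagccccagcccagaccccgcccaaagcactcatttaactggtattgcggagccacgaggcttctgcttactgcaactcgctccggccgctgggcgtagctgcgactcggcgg
The common word has 12 letters and begins 110 bases before the CR2 start and 85 bases before the CD55 start. It was found in 3 of 35116 windows, or 0.00854%, when both strands were searched, and the remaining window belongs to LOC105372625 on chromosome 20. A common word of 12 letters is not particular to this pair. Over the 15 pairs of the 6 genes the longest common word had 9 to 35 letters, and CR2 shared a word of 14 letters with CD59. Only the first listed window of each gene was compared, so the further windows of CD46 and CD59 are not covered. The longest was between CR1L and CD46, adjacent genes of the cluster, in CR1L at chr1:207644883-207645182 and CD46 at chr1:207751788-207752087, both on the plus strand.
CR1L and CD46: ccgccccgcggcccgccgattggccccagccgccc

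The site read by RBPJ, the DNA-binding partner of active NOTCH, was searched as GTGGGAA on both strands, and its core as TGGGAA, which lies within the longer site. The longer site was present in 6.25% of all windows and the core in 24% of them. Neither occurred in the windows of CR2, CD55, CR1, CR1L or CD46, which says only that these letters are absent from these windows. Of the 10 windows of the 6 genes 1 held the longer site, the window at an inner start of CD59 at chr11:33722678-33722977 on the minus strand, shown because it was the exception. Capitals mark the matches, 1 on each strand, which begin 44 bases before and 38 bases after the start.
CD59: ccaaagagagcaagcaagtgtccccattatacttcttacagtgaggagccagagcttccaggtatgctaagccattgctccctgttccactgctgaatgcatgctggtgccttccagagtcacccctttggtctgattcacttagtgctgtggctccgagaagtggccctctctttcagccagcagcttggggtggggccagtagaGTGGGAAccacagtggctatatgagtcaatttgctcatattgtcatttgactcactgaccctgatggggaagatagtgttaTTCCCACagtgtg
A palindromic E-box, CACGTG, was present in 7.26% of windows and once in that of CR2, 45 bases before the start. A GC box, GGGCGG, was present in 45% of windows, among them those of CR2, CD55, CR1L and CD46 and 2 of the 4 of CD59. A match is a run of letters, and binding was not measured here.

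Of the 6 genes 4 had enough reads for the test across all genes. CR2 and CD55 were lower with compound E, CD59 was higher, and CD46 differed little. The values are given as a description because this contrast chose the genes. By the rule above 3 of the 4 were called, beside 38.3% of all tested genes, and since the contrast chose the genes nothing is read from that count. CR1 and CR1L were almost without reads. In bulk RNA, fewer cells expressing a gene and less RNA per cell cannot be told apart.

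CR2 (ENSG00000117322, chromosome 1, 207454230 to 207489895, plus strand) had 76, 98 and 80 reads with compound E and 478, 494 and 432 reads with DMSO. These were 4.16, 5.42 and 4.25 CPM with compound E, and 24.8, 24.9 and 25.0 CPM with DMSO. Every compound E library was far below every DMSO library, and the groups did not overlap. The means were 4.61 ± 0.704 CPM with compound E and 24.9 ± 0.108 CPM with DMSO (SD, n = 3 each), a log2 fold change of -2.43 ± 0.0959 (SE), or 5.40-fold lower. Of the 16926 tested genes 61 had a lower log2 fold change, and 2.63% of the tested genes were called and at least 2-fold lower. Reads remained in every compound E library.

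The spread of CR2 differed between groups: its coefficient of variation was 15.3% with compound E, where counting error alone gives 10.9%, and 0.433% with DMSO, where counting error gives 4.62%. The DMSO libraries were therefore closer to one another than counting error alone would make them on average. The second compound E library was the highest of its group. Without it the log2 fold change was -2.56, and without either of the others it was -2.36 or -2.38.

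Because CR2 is best known from B cells, markers of other blood lineages were read beside it. The 10 B-lineage markers summed to 34.4 to 36.2 CPM with compound E and 32.0 to 32.6 CPM with DMSO, with 7 of the 10 carrying reads in each library. The defining B-cell genes MS4A1 (CD20), PAX5 and CD22 were at 0 in all 6 libraries. Of 11 myeloid markers 4 to 6 had reads, with sums of 2.43 to 2.82 CPM with compound E and 2.90 to 3.08 CPM with DMSO, and FCGR3A, MPO, S100A8 and S100A9 were at 0 throughout. Of 10 erythroid markers 3 to 5 had reads, with sums of 10.39 to 11.63 CPM with compound E and 13.02 to 13.78 CPM with DMSO, and HBB, HBG1, HBG2 and GYPB were at 0. The part of the B-lineage, myeloid, erythroid and T-lineage differences in the values of the complement genes was not tested.

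CR1 (ENSG00000203710, chromosome 1, 207496147 to 207641765, plus strand), the receptor for C3b and C4b of red cells and leukocytes, had 0, 1 and 0 reads with compound E and 0, 6 and 2 reads with DMSO. CR1L (ENSG00000197721, chromosome 1, 207645113 to 207738416, plus strand) had 0, 0 and 1 read with compound E and 0 in every DMSO library. A count of 0 allows up to 3 reads, or 0.159 to 0.166 CPM in the compound E libraries and 0.151 to 0.173 CPM in the DMSO libraries, for counting error only. No fold change is given, because a difference was not detectable at this depth. CR1 and CR1L are close relatives in sequence, and the sources used here do not say how reads matching both were counted. The row AL137789.1, which overlaps CR1, was at 0 in every library. So were AL137789.2, RNA5SP534 and the pseudogenes CDCA4P3 and CD46P1, which overlap CR1L.

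**Figure D1:**
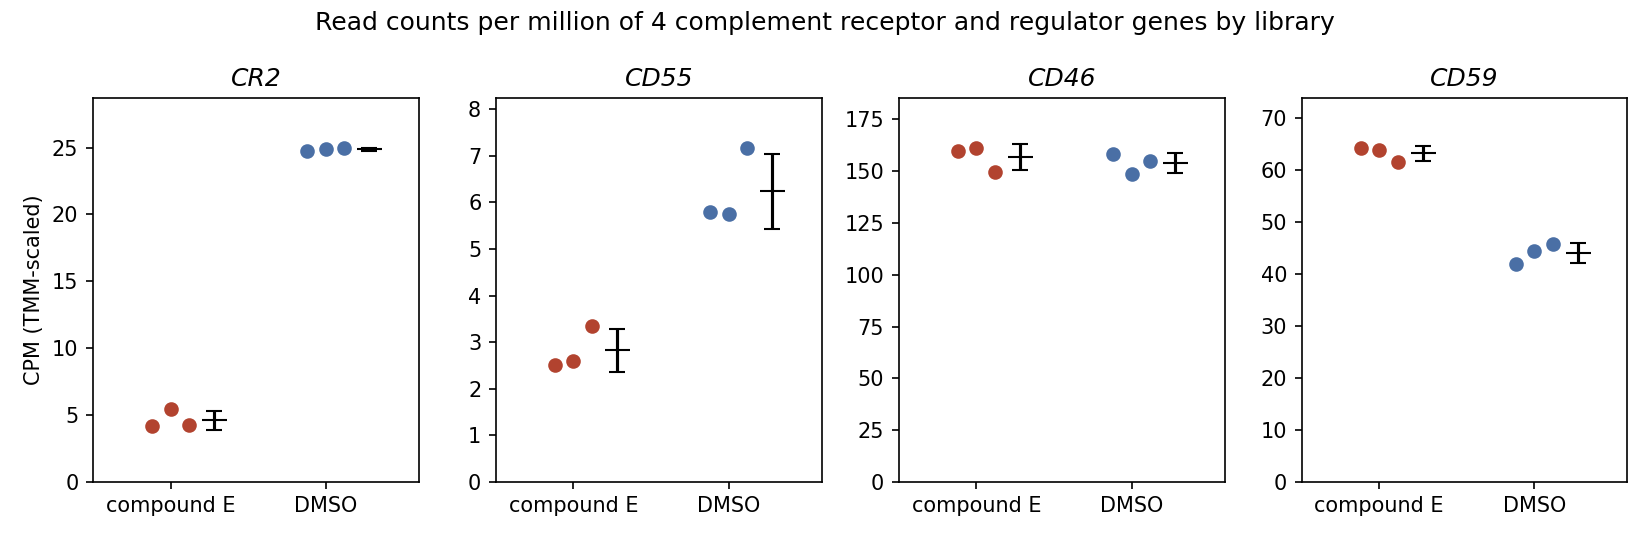
Level in CPM of CR2, CD55, CD46 and CD59 in each library, compound E left of DMSO, with points for libraries and bars for the mean and SD. The compound E points of CR2 (4.16 to 5.42 CPM) and CD55 (2.52 to 3.35 CPM) lie below the DMSO points, those of CD59 (61.5 to 64.2 CPM) above them, and those of CD46 overlap.

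CD55 (ENSG00000196352, chromosome 1, 207321376 to 207386804, plus strand), decay-accelerating factor, had 46, 47 and 63 reads with compound E and 112, 114 and 124 reads with DMSO. These were 2.52, 2.60 and 3.35 CPM with compound E, and 5.80, 5.75 and 7.17 CPM with DMSO. Library 3 was the highest in both groups, and the groups did not overlap. The means were 2.82 ± 0.457 CPM with compound E and 6.24 ± 0.802 CPM with DMSO (SD, n = 3 each), a log2 fold change of -1.14 ± 0.158 (SE), or 2.20-fold lower. There were 356 tested genes with a lower log2 fold change. The coefficient of variation was 16.2% with compound E and 12.9% with DMSO, beside 13.9% and 9.26% from counting error in those groups, so low counts limit the precision of CD55 more than that of CD46 or CD59.

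CD46 (ENSG00000117335, chromosome 1, 207752057 to 207795513, plus strand), membrane cofactor protein, had 2920, 2913 and 2812 reads with compound E and 3057, 2946 and 2683 reads with DMSO. These were 159.7, 161 and 149 CPM with compound E, and 158, 149 and 155 CPM with DMSO, so the groups overlapped. The means were 157 ± 6.41 CPM with compound E and 154 ± 4.93 CPM with DMSO (SD, n = 3 each), a log2 fold change of 0.03 ± 0.0339 (SE). CD46 lies 262162 bases beyond CR2 in the cluster, and it is the deepest counted of the 6 genes. A pseudogene row on the same strand inside it, CDCA4P4, had 5 reads in each compound E library and 5 to 9 reads in the DMSO libraries.

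CD59 (ENSG00000085063, chromosome 11, 33703010 to 33736491, minus strand), protectin, had 1173, 1153 and 1157 reads with compound E and 808, 880 and 791 reads with DMSO. These were 64.2, 63.8 and 61.5 CPM with compound E, and 41.9, 44.4 and 45.7 CPM with DMSO. Every compound E library was above every DMSO library. The means were 63.1 ± 1.46 CPM with compound E and 44.0 ± 1.96 CPM with DMSO (SD, n = 3 each), a log2 fold change of 0.52 ± 0.0470 (SE), or 1.44-fold higher. There were 815 tested genes with a higher log2 fold change. The row AL049629.2, which overlaps CD59 on the same strand, had 1 to 3 reads with compound E and 0 to 1 with DMSO.

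The counts sum all transcripts of a gene. GENCODE release 29 lists 7 transcripts for CR2, 14 for CD55, 19 for CD46 and 12 for CD59, of which 4, 9, 11 and 11 are coding, and which of them carried the reads cannot be read from counts per gene.

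Levels were compared between genes on the deposited FPKM scale. A read count is divided there by the length listed for the gene and the scaled depth of the library. CD46 had 18.2, 18.4 and 17.1 FPKM with compound E and 18.1, 16.9 and 17.6 FPKM with DMSO. CD59 had 6.16, 6.14 and 5.91 FPKM with compound E and 4.01, 4.24 and 4.37 FPKM with DMSO. CR2 had 0.846, 1.11 and 0.867 FPKM with compound E and 5.03, 5.05 and 5.06 FPKM with DMSO. The order changed between groups: with compound E it ran CD46, CD59, CR2 and CD55, and with DMSO it ran CD46, CR2, CD59 and CD55. CD55 was last in each, at 0.424, 0.438 and 0.564 FPKM with compound E and 0.975, 0.964 and 1.20 FPKM with DMSO. Within a group the libraries of neighbours in the order did not overlap. The order of CR2 and CD59 with DMSO rests on the listed lengths, 4885 bases for CR2 and 10358 bases for CD59. In CPM, which is not divided by length, CD59 exceeded CR2 in both groups (44.0 against 24.9 CPM with DMSO). In mean FPKM CR2 exceeded 48.3% of the 19951 protein-coding rows with compound E and 65.1% of them with DMSO, while CD46 exceeded 87.0% of them in each group.

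**Figure D2:**
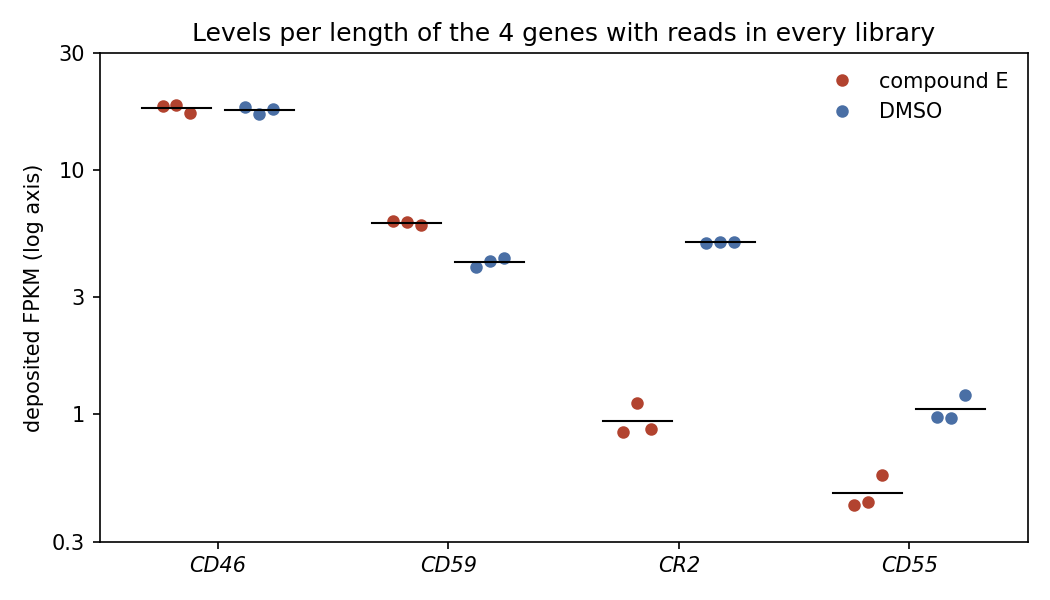
Deposited FPKM of the 4 genes with reads in every library, on a log axis, with compound E left of DMSO and 1 point per library. CR2 lies below CD59 with compound E (means 0.940 and 6.07 FPKM) and above it with DMSO (means 5.05 and 4.21 FPKM).

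The summed FPKM of the 6 genes was 25.4 ± 0.866 with compound E and 27.8 ± 0.579 with DMSO (SD, n = 3 each). Of that sum CR2 made up 3.69 ± 0.485% with compound E and 18.1 ± 0.388% with DMSO. CD59 made up 23.9 ± 0.357% with compound E and 15.1 ± 0.723% with DMSO. CD46 held the greatest share, 70.5 ± 0.585% with compound E and 62.9 ± 1.18% with DMSO, although its own level differed little. Ratios within a library do not depend on depth, though their size depends on the listed lengths. CD59 over CR2 was 6.55 ± 0.896 with compound E and 0.834 ± 0.0336 with DMSO. CD59 over CD55, the pair of GPI-anchored inhibitors, was 10.5 to 14.5 with compound E and 3.64 to 4.40 with DMSO.

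The neighbourhood of the cluster was read within 1 Mb to each side, where 16 other genes were tested. Of these 5 were called higher and 5 lower, beside 18.9% and 19.4% of all tested genes. Beyond CD46 lay CD34, a surface protein of stem and progenitor cells, which was higher, and before CD55 lay FCMR, the receptor for the tail of IgM, which was lower. CD34, 391077 bases from CR2, had 9.85, 8.68 and 9.51 CPM with compound E and 2.69, 2.22 and 2.20 CPM with DMSO. Its groups did not overlap (edgeR log2 fold change 1.97 ± 0.144 SE, adjusted p = 1.7e-14). FCMR, 530983 bases from CR2 on the other side, had 6.62, 6.03 and 6.69 CPM with compound E and 10.6, 11.3 and 10.2 CPM with DMSO (log2 fold change -0.73 ± 0.108 SE, edgeR adjusted p = 5.36e-07). MIR29B2CHG, the host transcript of a miR-29 cluster, lies between CD46 and CD34 and rose by 0.88 ± 0.0466 on the log2 scale, to 77.5 ± 3.24 CPM with compound E, against 42.2 ± 1.88 CPM with DMSO.

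Of the other called genes of the window, SRGAP2, a regulator of the RAC GTPase, rose by 0.51, RASSF5, a RAS effector of lymphocyte adhesion, rose by 0.19, and the pseudogene AL591846.1 rose by 0.88. EIF2D, a translation factor, fell by 0.35, PFKFB2, a regulator of glycolysis, fell by 0.19, and IL24, a cytokine, fell by 0.83 on the log2 scale. IL10, the anti-inflammatory cytokine, fell by 3.53 ± 0.514 (SE) on the log2 scale, more than CR2. It had 1, 2 and 2 reads with compound E and 17, 27 and 19 reads with DMSO. Between CD55 and CR2, 67426 bases apart, the lincRNA row AL391597.1 was at 0 in every library, as was AL596218.1 before CD55. Farther out C4BPA, the alpha chain of the plasma regulator C4b-binding protein, was at 0, and C4BPB, its beta chain, had 6, 1 and 2 reads with compound E and 3, 7 and 1 reads with DMSO. Without the first DMSO library 3 genes of the window were called lower, because IL24 (edgeR adjusted p = 0.0811) and PFKFB2 (adjusted p = 0.0918) lost their calls. The call of IL24 was also lost without the third compound E library (adjusted p = 0.0695) or the second DMSO library (adjusted p = 0.0574). That of PFKFB2 was also lost without the second compound E library (adjusted p = 0.162). That of AL591846.1 was lost without the first compound E library (adjusted p = 0.114) or the first DMSO library (adjusted p = 0.0642). Over all 17 alternative analyses IL24 lost its call in 5, PFKFB2 in 6 and AL591846.1 in 3.

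**Figure D3:**
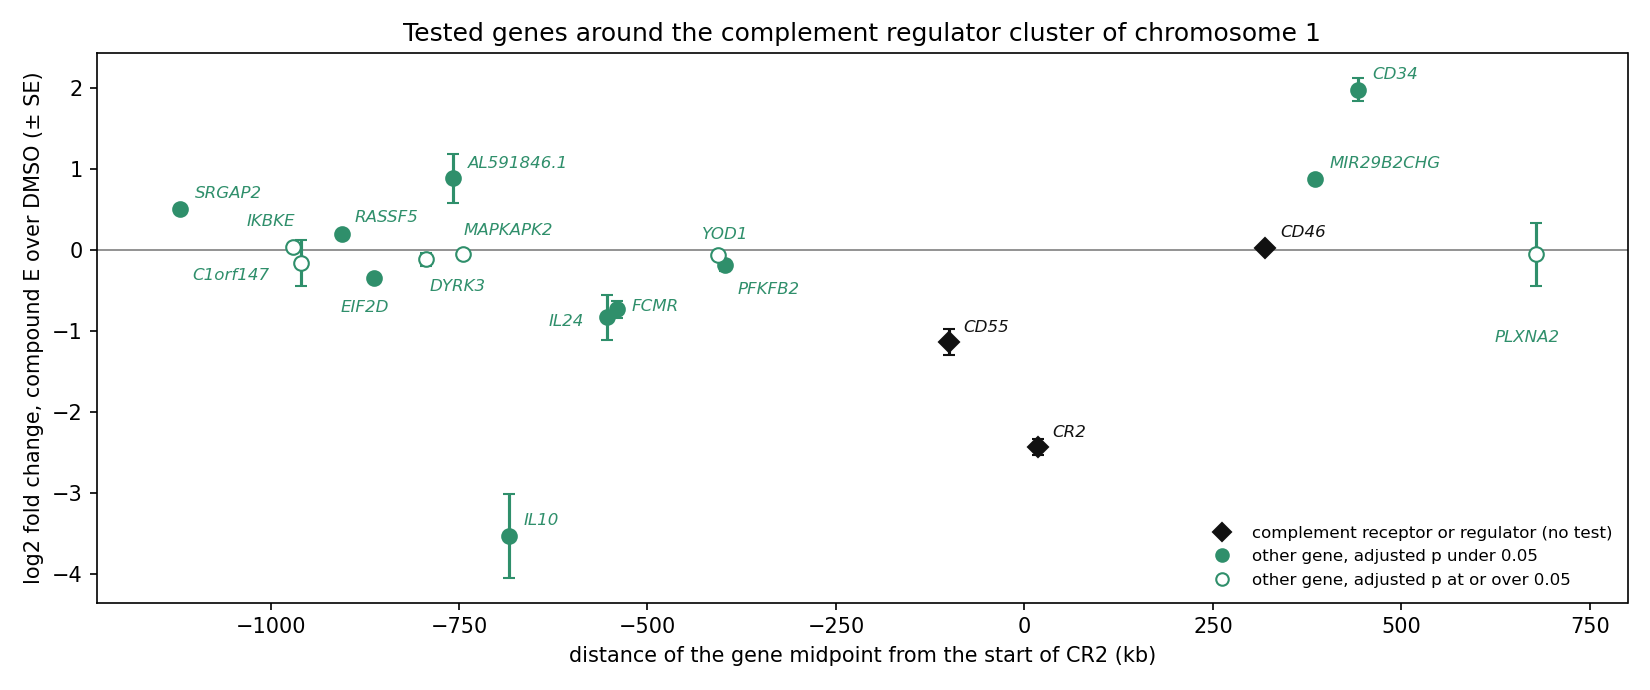
Log2 fold change with its SE, compound E over DMSO, of the tested genes around the cluster by distance of the gene midpoint from the start of CR2 in kb. Diamonds are the complement genes, drawn with no test. CR2 (-2.43) and CD55 (-1.14) have lower values than FCMR (-0.73) to their left and CD34 (1.97) to their right. IL10 (-3.53), also to their left, is lower than both, and its value rests on 1 to 2 reads per compound E library.

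Around CD59, 15 other genes were tested within 1 Mb, of which 3 were called higher and 2 lower, beside 18.9% and 19.4% of all tested genes. FBXO3, a ubiquitin ligase subunit 4448 bases from CD59, had 26.9, 26.4 and 25.8 CPM with compound E and 26.9, 27.9 and 27.7 CPM with DMSO and was not called (log2 fold change -0.06). C11orf91, on the other side, had 2, 1 and 5 reads with compound E and 3, 6 and 2 reads with DMSO. KIAA1549L, the next coding gene beyond it, fell by 1.73 ± 0.288 on the log2 scale, with 14, 9 and 13 reads with compound E and 30, 51 and 42 reads with DMSO. LMO2, a transcriptional cofactor and T-ALL oncogene 122085 bases away, had 5.14, 5.97 and 6.80 CPM with compound E and 9.53, 9.94 and 10.2 CPM with DMSO (edgeR log2 fold change -0.73 ± 0.116 SE, adjusted p = 2.53e-06). The genes called higher were HIPK3, a protein kinase (0.20 ± 0.0418), TCP11L1 (0.23) and LINC00294 (0.25). The calls of TCP11L1 and LINC00294 were both lost without the second compound E library or the second DMSO library, which left 1 gene called higher. That of TCP11L1 was lost also without the third library of either group, and that of LINC00294 without the third compound E library or the first DMSO library. Over all 17 alternative analyses TCP11L1 lost its call in 8 and LINC00294 in 10.

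Outside the 6 genes, 63 others of the complement pathway were listed, of which 18 had no read in any library and 26 were tested. Of the tested genes 1 was called higher and 7 lower, beside 18.9% and 19.4% of all tested genes. Their median log2 fold change was -0.09, beside -0.0034 over all tested genes. The list divides into cascade components, soluble regulators, other receptors and surface regulators, and partners of the 6 genes.

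**Figure D4:**
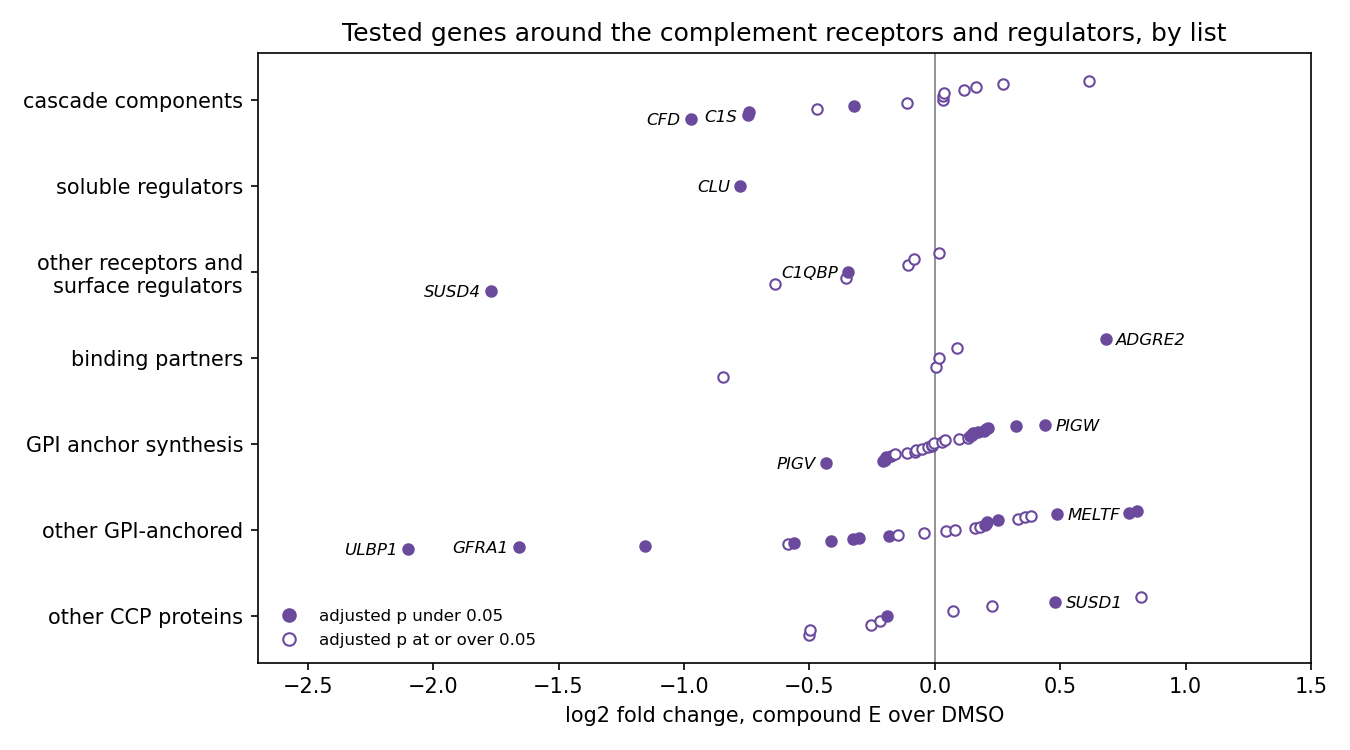
Log2 fold change, compound E over DMSO, of the tested genes of each list around the complement receptors and regulators, 1 point per gene. Among the complement pathway lists 1 gene is called higher and 7 lower, and among GPI anchor genes 9 are called higher and 5 lower. Of all tested genes 18.9% are called higher and 19.4% lower.

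Among the 29 cascade components 13 were tested and 4 were called lower, beside 19.4% of all tested genes. CFD, factor D, the protease that activates factor B, had 1.31, 1.88 and 1.65 CPM with compound E and 3.06, 3.33 and 3.12 CPM with DMSO (edgeR log2 fold change -0.97 ± 0.203 SE, adjusted p = 0.000161). C1S, a protease of the C1 complex, had 1.91, 2.49 and 1.70 CPM with compound E and 3.16, 3.28 and 3.81 CPM with DMSO (edgeR log2 fold change -0.75 ± 0.194 SE, adjusted p = 0.00204). C2, the protease part of the classical convertase, fell by 0.74 (edgeR adjusted p = 0.0149), and C1RL, a C1r-like protease, fell by 0.32 on the log2 scale (edgeR adjusted p = 0.0131). In neither gene did the groups overlap, which held for 46.8% of all tested genes. C3, the source of the fragments that CR2, CR1 and CD46 bind, had 1, 1 and 0 reads with compound E and 1, 3 and 7 reads with DMSO. Among 14 soluble regulators CLU, clusterin, was the only one tested and fell by 0.77 (edgeR adjusted p = 0.0274). CFI, the protease that uses CD46 and CR1 as cofactors, was at 0 in every library.

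The calls of CLU, C1RL and C2 are borderline. That of CLU was lost in 8 of 17 alternative analyses (adjusted p = 0.0654 to 0.204), among them when the second or the third compound E library, or the first or the second DMSO library, was left out. That of C1RL was lost in 4 of the 17 (adjusted p = 0.0584 to 0.121), among them without the first compound E library (adjusted p = 0.0601) or the first DMSO library (adjusted p = 0.0584). That of C2 was lost in 3 of the 17 (adjusted p = 0.0504 to 0.121), among them without the first compound E library (adjusted p = 0.0504).

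Of the 13 other receptors and surface regulators 7 were tested and 2 were called lower, beside 19.4% of all tested genes. SUSD4, a membrane protein with CCP domains that inhibits complement, had 7.99, 7.36 and 7.23 CPM with compound E and 22.1, 27.9 and 26.9 CPM with DMSO. The groups did not overlap, and its level was 3.40-fold lower (edgeR log2 fold change -1.77 ± 0.0916 SE, adjusted p = 4.84e-19). It lies on chromosome 1 outside the cluster. C1QBP, a mostly mitochondrial protein that binds the globular heads of C1q, fell by 0.35 ± 0.0284 on the log2 scale, to 242 ± 3.82 CPM with compound E, against 307 ± 7.52 CPM with DMSO (SD, n = 3 each). C5AR1, the receptor for C5a, had 7, 6 and 6 reads with compound E and 8, 2 and 6 reads with DMSO.

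Of 7 partners of the 6 genes 5 were tested and 1 was called higher, beside 18.9% of all tested genes. This was ADGRE2, an adhesion receptor of myeloid cells closely related to the CD55 ligand ADGRE5. It had 3.94, 3.48 and 3.35 CPM with compound E and 2.59, 1.87 and 2.25 CPM with DMSO (edgeR log2 fold change 0.68 ± 0.186 SE, adjusted p = 0.00316). The partners of CR2 and CD55 below were picked after their values were seen. CD81, a tetraspanin of the CR2 complex, averaged 154 ± 3.71 CPM with compound E and 152 ± 1.22 CPM with DMSO and was not called. ADGRE5 itself averaged 9.60 ± 1.26 CPM with compound E and 9.56 ± 1.07 CPM with DMSO and was not called.

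CD55 and CD59 reach the surface on the same GPI anchor and differed in opposite directions. Of the 29 genes that build or attach the anchor 28 were tested, and 9 were called higher and 5 lower, beside 18.9% and 19.4% of all tested genes. Their median log2 fold change was -0.0068. PIGW, which acylates the inositol of the precursor, rose to 26.9 ± 1.80 CPM with compound E, against 19.8 ± 0.933 CPM with DMSO, a log2 fold change of 0.44. PIGS, a subunit of the transamidase that attaches the anchor, rose by 0.20, DPM1, which makes the mannose donor, rose by 0.20, and PIGX, a partner of the first mannosyltransferase, rose by 0.17. PIGV, which adds a later mannose, fell by 0.43. PIGA, PIGL, PIGN and other genes of the list stood near the threshold: DESeq2 called 5 higher and 1 lower, and without the first DMSO library edgeR called 3 lower.

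Another 73 genes encode other GPI-anchored proteins or other CCP proteins, of which 34 were tested, and 7 were called higher and 9 lower, beside 18.9% and 19.4% of all tested genes. ULBP1, a ligand of the killer-cell receptor NKG2D, had 4.70, 6.14 and 5.84 CPM with compound E and 24.0, 22.9 and 24.7 CPM with DMSO (edgeR log2 fold change -2.10 ± 0.0939 SE, adjusted p = 4.4e-21). GFRA1, a GDNF receptor, fell by 1.66 and PRNP, the prion protein, by 0.41. MELTF, melanotransferrin, rose by 0.49 and GPC2, a glypican, by 0.25. Of the other CCP genes 9 were tested: SUSD1 rose by 0.48, and GABBR1, a GABA-B receptor subunit, fell by 0.19. The call of GABBR1 was lost in 5 of 17 alternative analyses (adjusted p = 0.112 to 0.188), among them without the first DMSO library (adjusted p = 0.127).

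Genes whose pattern over the 6 libraries was most like that of CR2 and CD55 were found among protein-coding genes of at least 5 CPM, as the root mean square difference of log2 CPM centred on each gene's own mean. This is a description, since the difference between groups dominates it. For CR2, among 10116 genes, the nearest were VLDLR, a lipoprotein receptor (0.0880), TMEM132D, a membrane protein (0.109), and SLC43A1, an amino acid transporter (0.115). VLDLR averaged 8.68 ± 0.636 CPM with compound E and 48.6 ± 1.07 CPM with DMSO. For CD55, among 10117 genes, the nearest were ALDH3B2, an aldehyde dehydrogenase (0.109), CYFIP1, a subunit of the WAVE actin regulator (0.115), and SMCO4 (0.134). CYFIP1 averaged 15.8 ± 1.75 CPM with compound E and 37.5 ± 2.32 CPM with DMSO. None of the 3 genes nearest to CD55 or the 3 nearest to CR2 was another complement receptor or regulator. For the complement genes themselves this was largely fixed beforehand. CD55, CR1 and CR1L averaged under 5 CPM and could not be found, CD46 differed little, and CD59 was higher with compound E. Nothing is read from their absence.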

How the data were processed

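RNA was measured in 6 MOLT-3 libraries, 3 per group. Per the labels' protocols, polyadenylated RNA was selected on oligo-dT beads and libraries were made with an NEBNext Ultra kit. The submitters' processing notes name HISAT2 2.0.5, featureCounts 1.5.0-p3 and DESeq2 1.16.1. The genome build, the strand setting and the handling of reads with several matches are not stated in the notes or labels. The deposited table of raw read counts was used for all tests. The deposited FPKM table by the authors equals count over gene length over 1 divisor per library. All 58735 rows have the start, end and strand of GENCODE release 29, so coordinates are on GRCh38.

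The counts went through edgeR 4.0.16 in R 4.3.3: filterByExpr, TMM scaling, the quasi-likelihood F-test with treatment as the only term, and Benjamini-Hochberg adjustment over the 16926 genes kept (threshold 0.05). The analysis code was run on simulated counts with few changed genes. That setting is unlike these data, so it checks the code and not the share of genes called here. The SE is the size of the log2 fold change over the square root of F. CPM is a count per 1000000 of the library total times its TMM factor. Library totals of 17316138 to 19845114 counts set the precision, and the error from counting alone is given beside the spread of each gene.

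The 6 genes, the lists and the tests were chosen with earlier results of these data known, so no p is given for the 6 genes. Named beside them are up to 5 called genes of smallest p per list, called coding and lincRNA genes and direct neighbours in the windows of 1 Mb, overlapping rows, and the 3 genes most like CR2 and CD55 (prior count 2). PIGA, PIGL, PIGN, CD81, ADGRE5 and the pseudogene AL591846.1 were added after their values were seen. Alternatives were RLE, upper-quartile or library-size scaling, no filter, at least 5 CPM in 3 libraries, DESeq2 1.42.0, limma-voom (limma 3.58.1), a replicate block, FPKM on the log2(FPKM + pseudocount) scale in limma with pseudocounts of 1 and 0.1, and leaving out each library. All 6 genes matched RefSeq promoter windows, 10 in number. Protein sequences were not used here. Some genes of the lists are not reported here.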

Additional observations from a re-analysis of the deposited data

How the results depend on the processing

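The direction of CR2, CD55 and CD59 was kept in all 17 alternatives. Their calls are not used as support, because the contrast chose the genes. With the filter of at least 5 CPM in 3 libraries, CD55 was kept through its DMSO libraries alone. Log2 fold changes ranged over them from -2.56 to -1.64 for CR2, -1.28 to -0.47 for CD55, 0.0007 to 0.06 for CD46 and 0.44 to 0.55 for CD59. The pseudocount of 1 FPKM, with or without the filter, gave -1.64 for CR2, -0.47 for CD55 and 0.44 for CD59, since it compresses low genes. Leaving out 1 library gave -2.56 to -2.36 for CR2, -1.28 to -1.03 for CD55, 0.0007 to 0.06 for CD46 and 0.49 to 0.55 for CD59. All genes numbered 3206 higher and 3278 lower in edgeR, against 2383 higher and 2134 lower in DESeq2. With FPKM + 1 and no filter 2128 were higher and 1874 lower. Of the 26 tested complement pathway genes 1 was higher and 7 lower, against 0 and 3 of the 8 tested at 5 CPM. With FPKM + 1 and no filter 0 and 3 of 45 were called, and DESeq2 called 4 of 45 lower. Of the GPI anchor genes 9 were higher and 5 lower, against 5 and 1 in DESeq2, 4 and 3 with FPKM + 1, 4 higher with FPKM + 0.1, and 4 and 0 with FPKM + 1 and no filter. Of the other GPI-anchored and CCP genes 7 were higher and 9 lower, against 6 and 5 in DESeq2 and 9 and 7 with FPKM + 1. With FPKM + 1 and no filter 7 of them were higher and 5 lower. In the chromosome 1 window 5 of the 16 tested were lower, against 3 of the 11 tested at 5 CPM and 3 of 34 in DESeq2. In the chromosome 11 window 3 were higher, against 1 in DESeq2 and 1 with FPKM + 1 and no filter. Settings with another filter enter another number of genes, so their counts are not directly comparable with those of the main fit. The cause of the remaining differences was not tested. Leaving out 1 library gave 3 to 6 GPI anchor genes lower, 3 to 5 lower in the chromosome 1 window and 1 to 3 higher in that of chromosome 11. No log2 fold change of CR2, CD55 or CD59 changed sign. The direction with more calls was not kept in every setting, among others for all genes and for the other GPI-anchored and CCP genes.

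Libraries with the same number did not deviate together (correlations of 0.0103, -0.0191 and 0.000118 over 16926 genes). With the replicate number as a block 3019 genes were called higher and 3119 lower. Depth limits CR1 and CR1L to a description of single reads, and low counts limit CD55.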
